A study of Mus musculus with 13 samples.

Results

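The transcription factor p53, its feedback partners and the genes it activates were followed in mouse XEN and EpiSC cells with and without a deletion of Xist. The set holds 33 genes, Trp53 itself among them, chosen by symbol from general knowledge of the pathway with earlier results of these data known. All 33 were found among the 38377 gene rows of the count table. All 33 also passed the filter on low counts in the fit behind each comparison, and Pmaip1 alone was lost to it, in the 2 EpiSC fits that left out library 1 of WT or of dXist. RNA was sequenced in bulk from 13 libraries in 6 groups, all of female cells. XEN cells, stem cells of the extraembryonic endoderm grown in DMEM with serum, were wild type (WT, n = 2), carried a paternal Xist deletion (dXist, n = 3), were WT exposed to 20 uM 5-aza-2'-deoxycytidine (WT Aza, n = 2) or were dXist with the same exposure (dXist Aza, n = 2). EpiSC, stem cells of the epiblast kept on matrigel with FGF2 and Activin, were WT (n = 2) or carried a heterozygous Xist deletion (n = 2). The numbers in the titles of the dXist XEN samples are read here as lines 1 to 3, with lines 1 and 2 also treated. The sources used here do not say whether these are separate clones or cultures, so the spread behind every p-value is the one between these libraries and may be technical. In bulk RNA, fewer cells of a type and less RNA per cell cannot be told apart.

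p53 is held at a low level in unstressed cells by Mdm2, a ubiquitin ligase that marks it for degradation and whose own gene p53 activates. DNA damage and other stresses free p53 from Mdm2, and p53 then switches on genes that halt the cell cycle, repair DNA, alter metabolism or start apoptosis. The cytidine analogue 5-aza-2'-deoxycytidine is built into DNA, where it traps DNA methyltransferases; it lowers DNA methylation and can also provoke a DNA damage response. p53 itself is regulated largely at the protein level, which RNA counts do not measure.

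Libraries held 5848454 to 35247432 counts, and levels are given in CPM after TMM scaling of the library sizes. Xist, the deleted gene, followed the labels in untreated cells, at 1550 and 1587 CPM in WT XEN and 1.16 to 4.79 CPM in dXist XEN, and at 206 to 815 CPM in WT against at most 0.435 CPM in dXist EpiSC. Treated dXist library 2 stood apart from the other deleted libraries with 242 CPM of Xist, against 14.6 CPM in treated library 1. Markers of XEN cells summed to 17400 to 61200 CPM in the 9 XEN libraries and to 156 to 279 CPM in EpiSC. Transcripts without a poly(A) tail made up 10.4% to 13.5% of counts in both WT Aza libraries and in replicate 2 of each EpiSC group, and at most 0.279% elsewhere. Aza in WT XEN and this difference in library type therefore cannot be told apart within XEN, and in EpiSC each group holds 1 library of each type. Among the libraries poor in such transcripts, dXist Aza held 0.279% and 0.142% and untreated dXist XEN 0.0172% to 0.0284%. This smaller difference goes with Aza in dXist XEN and cannot be told apart from it. Exons of Cdkn1a, Ano3, Plk3, Rrm2b, Ddb2, Ei24 and Tigar overlap a gene on the other strand, and their reads can be kept apart only if the counting used strand, which is not stated. Treated dXist library 1 differed from its own untreated line and from treated library 2 by the base composition of its transcripts, as given beside the results it touches.

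Promoter windows from RefSeq (GRCm38.p6, the 250 bases before to the 50 bases after each gene's start) were available for 25 of the 33 genes and were searched for the consensus of the p53 response element, whose 10-base unit is its own reverse complement and so reads alike on both strands. An exact unit lay in 11 of the 34 windows of the 25 genes, from 10 genes, and in 8.36% of all 32851 windows. A pair of exact units with a spacer of at most 13 bases occurred in 0.0731% of all windows and, among the set, only in Cdkn1a. A stretch of 20 bases was also searched, with no spacer and at most 2 mismatches, the core C and G of each unit kept. It was found in 0.326% of all windows and in 4 of the 34, from Cdkn1a, Ccng1, Gtse1 and Zfp365. The bases before the start of 3 genes that the results below turn on are shown with these matches in capitals, 5′ to 3′ along the gene's strand. For Cdkn1a the window is that of its upstream start (chr17:29090729-29090978, plus strand), and its capitals run from the first exact unit through the spacer to the end of the 20-base match, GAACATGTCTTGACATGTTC, which begins 51 bases before the start. For Ccng1 (chr11:40755287-40755536, minus strand) they mark the 20-base match, with 1 mismatch, and for Mdm2 (chr10:117710759-117711008, minus strand) a single exact unit.
Cdkn1a: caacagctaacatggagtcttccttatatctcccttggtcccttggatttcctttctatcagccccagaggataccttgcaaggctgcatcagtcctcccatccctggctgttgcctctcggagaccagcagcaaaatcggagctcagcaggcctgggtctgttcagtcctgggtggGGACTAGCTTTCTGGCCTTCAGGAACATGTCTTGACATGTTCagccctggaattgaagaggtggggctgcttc
Ccng1: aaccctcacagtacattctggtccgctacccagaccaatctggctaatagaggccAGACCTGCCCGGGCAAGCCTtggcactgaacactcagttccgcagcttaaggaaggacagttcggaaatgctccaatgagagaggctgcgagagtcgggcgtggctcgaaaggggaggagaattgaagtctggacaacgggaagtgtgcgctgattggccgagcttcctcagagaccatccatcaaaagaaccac
Mdm2: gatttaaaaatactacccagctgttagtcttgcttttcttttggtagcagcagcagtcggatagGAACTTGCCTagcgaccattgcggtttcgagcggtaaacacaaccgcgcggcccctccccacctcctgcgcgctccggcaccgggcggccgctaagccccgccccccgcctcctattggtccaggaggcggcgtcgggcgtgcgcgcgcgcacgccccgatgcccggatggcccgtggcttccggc
The matches in Gtse1 and Zfp365, the other two genes of the set with a 20-base match, are shown alone to be read beside that of Cdkn1a, with 1 mismatch in Gtse1 (chr15:85859945-85859964, plus strand) and 2 in Zfp365 (chr10:67912706-67912725, minus strand).
Gtse1: GAGCAAGTTGGGGCTTGCCT
Zfp365: AGACTAGGCTGGGCAAGACT
A match describes these letters and no binding was measured.

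In WT XEN cells the set was broadly expressed, and its strongest members per length were an antiproliferative gene and a p53 feedback gene. On the scale of CPM per kb of exon, the mean level over the 2 WT libraries was highest for Btg2 at 86.8, which restrains cell division, then Ccng1 at 83.2, a cyclin that feeds back on p53 through Mdm2. Phlda3, a repressor of Akt, stood at 56.4, Bax, a pore-former of the mitochondrial death pathway, at 52.0 and Gtse1, which moves p53 out of the nucleus, at 50.8. The lowest were the stress cytokine Gdf15 at 0.134 and the membrane protein gene Ano3 at 0.0642. The WT libraries were not alike. Library 1 was over 2-fold above library 2 for 7 members, near the share of 21.3% of all tested genes. It was over 2-fold below for none, where 10.6% of all tested genes were. The log2 ratio of library 1 to library 2 also fell with transcript GC, with a Spearman correlation of -0.225 over 11785 genes and -0.408 over 31 members. Among the 7 were Cdkn1a, with 2.49 times and Trp53inp1, with 3.07 times the level of library 2.

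Among untreated dXist XEN cells, lines 1 and 2 held high levels of many p53 target genes and line 3 did not. In line 1, 14 of the 33 genes were over 2-fold above both WT libraries, against 10.9% of all tested genes. In line 2 there were 15, against 10.4%, and in line 3 there were 0, against 6.07%. Above both WT libraries by any margin were 25, 25 and 4 members in lines 1, 2 and 3, against 37.8%, 36% and 30.9% of all tested genes, and below both were 4, 4 and 16, against 34.1%, 36.6% and 31.2%. The median log2 ratio to the WT mean was 1.07 in line 1, 1.13 in line 2 and -0.50 in line 3 over the 33 genes, and -0.01, -0.04 and -0.04 over all genes with counts. Over 2-fold below both WT libraries were Ddb2 and Zfp365 in lines 1 and 2 (12.9% and 13.7% of all genes) and Gtse1, Perp and Pmaip1 in line 3 (8.75%).

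**Figure D1:**
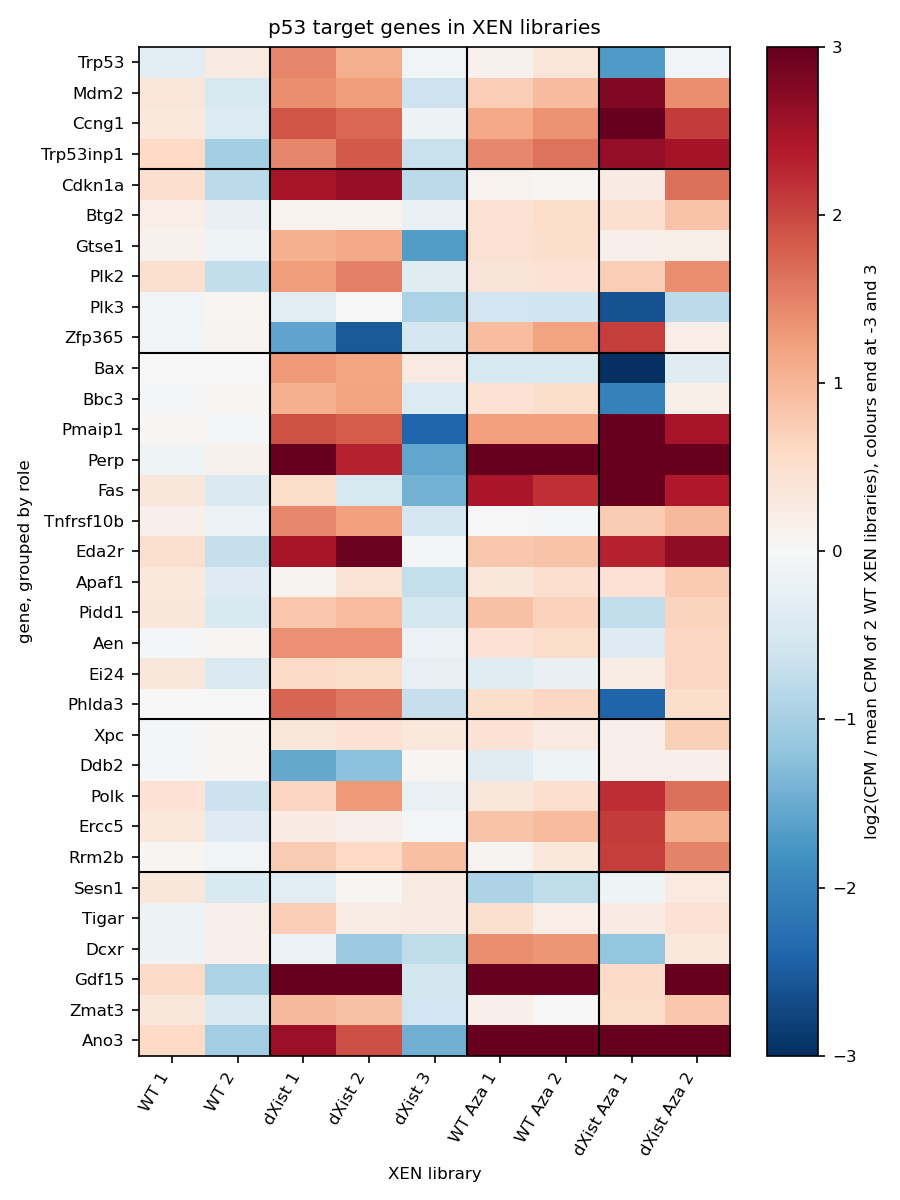
Level of each of the 33 genes (rows, grouped by role) in each of the 9 XEN libraries (columns) as log2 of its CPM over the mean CPM of the 2 WT XEN libraries; red is higher, blue lower, and colours end at -3 and 3. Lines 1 and 2 of dXist are red for most genes, with 14 and 15 genes over 2-fold above both WT libraries, and line 3 is pale or blue.

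In the feedback loop of p53, both the activator and its inhibitor stood high in lines 1 and 2. Trp53, which encodes p53, was counted at 49.6 and 75.2 CPM in the WT libraries and at 172, 133 and 59.4 CPM in dXist lines 1, 2 and 3. Mdm2 was at 213 and 120 CPM in WT and at 439, 399 and 108 CPM in the 3 lines. Ccng1 was at 365 and 220 CPM in WT and at 1084, 972 and 261 CPM in the lines. For these 3 genes lines 1 and 2 lay above both WT libraries, while line 3 lay between them for Trp53 and Ccng1 and below both for Mdm2. Trp53inp1, a nuclear co-activator of p53 and regulator of autophagy, was at 197 and 64.03 CPM in WT and at 361, 464 and 82.7 CPM in the lines. Its line 3 lay between the WT libraries.

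The cell cycle inhibitor Cdkn1a, which encodes p21 and is the best known p53 target of arrest, showed the split most clearly among the growth genes. It was at 169 and 67.8 CPM in WT and at 657, 717 and 69.1 CPM in dXist lines 1, 2 and 3, so that line 3 matched the lower WT library. The polo-like kinase gene Plk2 was at 164 and 71.0 CPM in WT and at 282, 337 and 91.0 CPM in the lines. Gtse1 was at 152 and 127 CPM in WT and at 291, 304 and 43.3 CPM in the lines, with line 3 below both WT libraries. Btg2 and Plk3 did not share this split. Btg2 was between 203 and 273 CPM in all 5 libraries. Plk3, another polo-like kinase, was at 15.4 and 16.9 CPM in WT and at 12.9, 16.04 and 8.38 CPM in the lines. Zfp365, a zinc finger gene tied to genome stability, went the other way, at 11.2 and 12.5 CPM in WT and 3.94, 2.06 and 8.28 CPM in the lines.

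**Figure D2:**
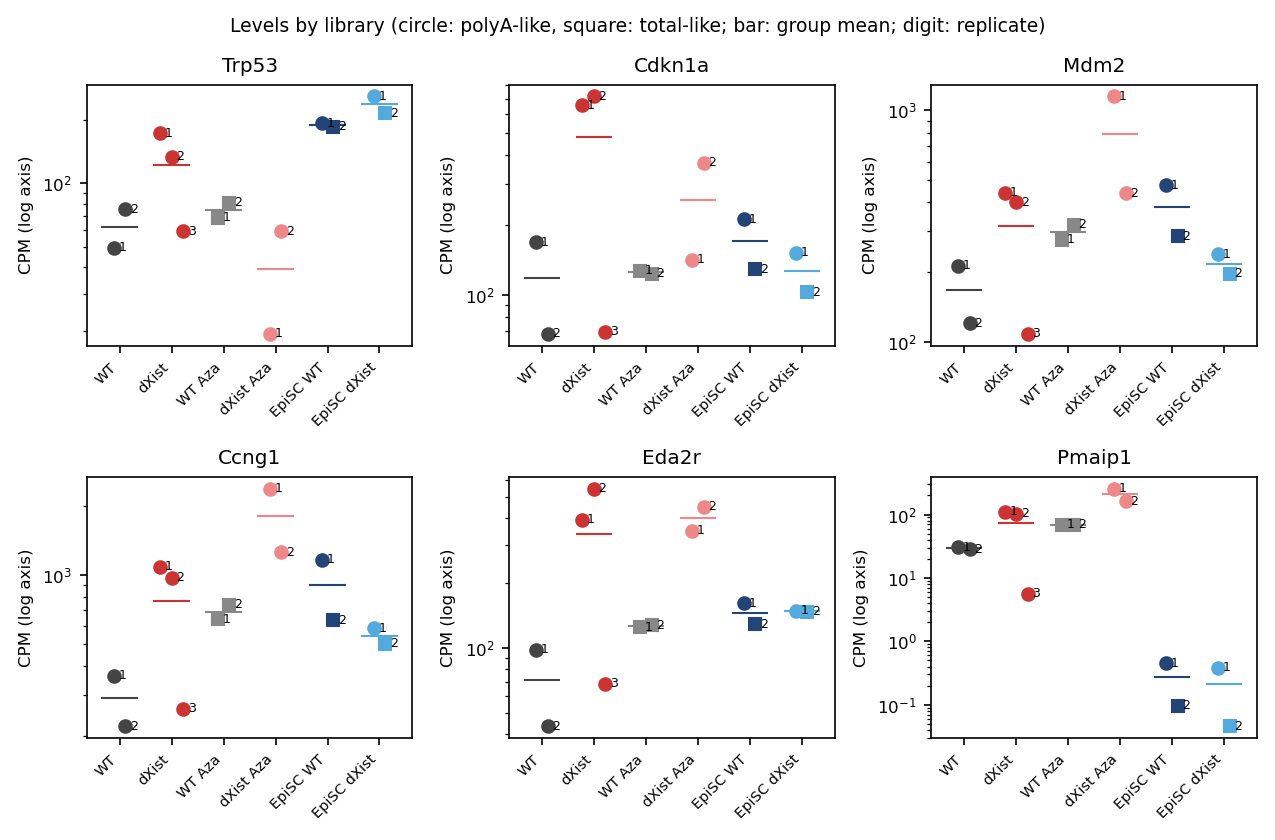
CPM on a log axis of Trp53, Cdkn1a, Mdm2, Ccng1, Eda2r and Pmaip1 in each of the 13 libraries by group; circles are libraries with few transcripts lacking a poly(A) tail, squares those with many, digits are replicate numbers and bars are group means. In untreated dXist XEN, libraries 1 and 2 lie above library 3 for all 6 genes, for Cdkn1a at 657 and 717 against 69.1 CPM.

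Genes of cell death and survival made up the largest role group, and 8 of the 12 were over 2-fold above both WT libraries in line 1 and in line 2. The TNF receptor family gene Eda2r, which lies on the X chromosome, was at 98.2 and 43.6 CPM in WT and at 392, 546 and 68.4 CPM in dXist lines 1, 2 and 3. Pmaip1, which encodes the BH3-only killer Noxa, was at 30.5 and 28.4 CPM in WT and at 110, 104 and 5.67 CPM in the lines. Its line 3 was the lowest of all 9 XEN libraries. Perp, a desmosomal membrane protein with a part in p53-driven apoptosis, was at 1.27 and 1.53 CPM in WT and at 13.1, 6.95 and 0.475 CPM in the lines. Phlda3 was at 89.1 and 86.6 CPM in WT and at 297, 261 and 54.6 CPM in the lines. Bax was at 82.9 and 81.0 CPM in WT and at 199, 186 and 99.4 CPM in the lines, so that all 3 lines lay above both WT libraries. Exons of Bax overlap those of another annotated gene on its strand, Gm45808, and how reads of the pair were assigned is not stated.

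Bbc3, which encodes the BH3-only killer Puma, was at 41.8 and 46.0 CPM in WT and at 92.2, 102 and 33.1 CPM in the lines. The nuclease gene Aen was at 57.0 and 59.4 CPM in WT and at 150, 150 and 51.4 CPM in the lines. Tnfrsf10b, the TRAIL receptor, was at 129 and 102 CPM in WT and at 314, 270 and 81.9 CPM in the lines. In these 3 genes line 3 was below both WT libraries. Fas, the receptor of Fas ligand, stood outside the split, at 3.99 and 2.36 CPM in WT and 4.68, 2.28 and 1.19 CPM in the lines. Apaf1, the scaffold of the apoptosome, was at 168 and 103 CPM in WT and at 144, 180 and 82.2 CPM in the lines. Pidd1, the death-domain scaffold of the PIDDosome, reached 57.3 and 62.7 CPM in lines 1 and 2, above WT at 41.6 and 24.0 CPM. Ei24, an endoplasmic reticulum protein gene, reached 131 and 130 CPM there, above WT at 111 and 65.4 CPM, and both were lower in line 3, with 22.6 CPM of Pidd1 and 74.7 CPM of Ei24.

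The repair genes differed less, and not in one direction. Ddb2, a sensor of ultraviolet damage, was at 14.3 and 15.7 CPM in WT and at 5.23, 6.35 and 15.6 CPM in the 3 lines, so that lines 1 and 2 were low and line 3 was at the WT level. Xpc, its partner in damage recognition, was at 12.8 and 13.3 CPM in WT and at 16.4, 17.6 and 16.2 CPM in the lines. Rrm2b, a p53-inducible subunit of ribonucleotide reductase, was at 6.90 and 6.25 CPM in WT and at 11.2, 10.02 and 12.3 CPM in the lines. Xpc and Rrm2b were above both WT libraries in all 3 lines. The bypass polymerase gene Polk reached 136 CPM in line 2 and was at 87.3 and 48.4 CPM in lines 1 and 3, against 75.8 and 35.9 CPM in WT. Ercc5, an endonuclease of excision repair, was between 46.4 and 75.4 CPM in all 5 libraries.

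Of the remaining genes Gdf15 had the widest range. It was at 0.368 and 0.128 CPM in WT, from 11 and 4 counts, and at 13.6, 2.35 and 0.170 CPM in lines 1, 2 and 3, from 425, 63 and 5 counts. Ano3 was at 0.703 and 0.223 CPM in WT and at 2.73, 1.76 and 0.170 CPM in the lines. The RNA-binding protein gene Zmat3 was at 130 and 76.9 CPM in WT and at 202, 190 and 69.8 CPM in the lines. These 3 genes again had lines 1 and 2 above both WT libraries and line 3 near or below the lower one. The antioxidant gene Sesn1 lay between 8.93 and 15.6 CPM in all 5 libraries. Tigar, a phosphatase that slows glycolysis, was at 9.01 and 11.2 CPM in WT and at 16.8, 11.8 and 11.9 CPM in the lines. The sugar reductase gene Dcxr was at 20.9 and 25.9 CPM in WT and at 20.7, 10.9 and 13.9 CPM in the lines.

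As a group comparison, none of the 33 genes was called between dXist and WT XEN by edgeR's quasi-likelihood test at a Benjamini-Hochberg adjusted p under 0.05. Of all tested genes 0% were called higher and 0.0217% lower, and 5 members had an unadjusted p under 0.05. DESeq2 called 2 members higher, Eda2r and Gdf15, where it called 1.07% of all genes higher. The log2 change was positive for 27 members, with a median of 0.76 against 0.000988 over all tested genes. The smallest p belonged to Eda2r, at 2.24 on the log2 scale (SE 0.75, adjusted p = 0.390). Gdf15 had a log2 change of 4.39 (SE 1.72, adjusted p = 0.422), Ccng1 1.39 (SE 0.59, adjusted p = 0.452) and Cdkn1a 2.02 (SE 0.88, adjusted p = 0.461). With line 3 left out, Eda2r at 2.72 (adjusted p = 0.0262), Perp at 2.80 (adjusted p = 0.0278) and Pmaip1 at 1.84 (adjusted p = 0.0272) were called higher, where 0.865% of all tested genes were. That fit keeps the 2 high lines only, and leaving out any other library called 0. Bax, Rrm2b, Tigar and Xpc were above WT in every line, 4 of 33 against 13.6% of all tested genes, and Dcxr and Zfp365 were below in every line, 2 of 33 against 14.8%.

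Other parts of the network were read from lists of related genes, and edgeR called none of their members in dXist against WT XEN. Of 28 tested further p53 targets, 15, 12 and 3 were above both WT libraries and 5, 13 and 18 below both in lines 1, 2 and 3, to be read against the shares of all tested genes given for the members above. The list had a median log2 change of -0.17, and 4 of its genes had an unadjusted p under 0.05. Of 19 tested kinases and regulators upstream of p53, 3, 4 and 2 were above both WT libraries in the lines and 7, 10 and 10 below both. The median of this list was -0.28, with 0 genes at an unadjusted p under 0.05. Of 20 apoptosis executors and inhibitors 10, 8 and 10 were above and 4, 5 and 3 below, with a median of 0.20. The same shares of all tested genes apply to both lists. Cell cycle genes bound by the DREAM complex, which represses them downstream of p21, lay below both WT libraries for 17, 17 and 18 of 20 genes in the lines, where 34.1%, 36.6% and 31.2% of all tested genes did, and 11 had an unadjusted p under 0.05. The count of these genes below both was also 18 in each WT Aza library and in treated dXist line 2, and 10 in treated line 1. Targets of ATF4 and CHOP, factors of the integrated stress response, lay above both WT libraries for 14 and 13 of 15 genes in lines 1 and 2 and for 1 in line 3. Ddit3, which encodes CHOP and was chosen from this list after its values were seen, was at 24.0 and 32.8 CPM in WT and at 236, 210 and 11.4 CPM in the lines. The ATF4 and CHOP list thus moved with the p53 targets across the lines, and its part in their levels was not tested. Of the base composition, the Spearman correlation of log2 line ratio with transcript GC over genes was -0.02 for line 1 over line 3 and -0.09 for line 2 over line 3. Fibroblast markers summed to 2.88 to 5.00 CPM in dXist and to 21.5 to 52.3 CPM in WT XEN, 8 of 10 of them under 1 CPM in every library of either group.

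In WT XEN cells given Aza, 28 of the 33 genes had a positive log2 change, with a median of 0.57 against -0.04 over all tested genes, and edgeR called none. Of all tested genes 0.549% were called higher and 0.0326% lower, and 6 members had an unadjusted p under 0.05. DESeq2 called Ano3, Fas and Perp higher, 3 of 33 against 2.88% of all genes. The genes with the smallest p were not the arrest genes but Ano3, Fas, Perp and Dcxr. Ano3 was at 12.0 and 8.82 CPM in the WT Aza libraries against 0.703 and 0.223 CPM untreated, a log2 change of 4.57 (SE 1.17, adjusted p = 0.169). Its untreated levels rest on 21 and 7 counts. Fas was at 17.4 and 14.5 CPM against 3.99 and 2.36 CPM, 2.42 (SE 0.69, adjusted p = 0.214). Perp was at 11.6 and 12.6 CPM against 1.27 and 1.53 CPM, 3.19 (SE 1.10, adjusted p = 0.288). In these genes both treated libraries were several times above both untreated ones. Dcxr was at 61.4 and 58.4 CPM against 20.9 and 25.9 CPM, 1.44 (SE 0.52, adjusted p = 0.310), and with library type as a term over all 13 libraries its log2 change was 0.15. The range of adjusted p over the alternatives was 4.03e-07 to 1 for Ano3, 0.0178 to 1 for Fas and 0.0018 to 1 for Perp.

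Cdkn1a was not among these genes. It was at 127 and 123 CPM in the WT Aza libraries, between the untreated values of 169 and 67.8 CPM. Mdm2 was at 276 and 320 CPM and Ccng1 at 640 and 740 CPM, each above both untreated libraries. Trp53inp1 was at 356 and 405 CPM against 197 and 64.03 CPM, and Pmaip1 at 68.6 and 69.0 CPM against 30.5 and 28.4 CPM. These feedback and death genes lay above WT without overlap, as did 22 of the 33 against 28.1% of all tested genes. In library 1, 22 members were above both untreated libraries (33.1% of all genes), 6 of them over 2-fold (15.7%), and in library 2 there were 24 (34.5%) and 9 (16.1%). Below both were 4 in each library (39.4% and 36.6%), none of them over 2-fold, against 7.24% and 5.96%. Trp53 was at 68.8 and 80.9 CPM, so that its groups overlapped. Bax was at 58.3 CPM in both treated libraries, below both untreated ones, as were Ddb2, Plk3 and Sesn1, 4 of 33 against 31.7%. The 2 treated libraries had the lowest chi-square of any replicate pair, 3.57 per degree of freedom over genes against 67.4 to 469. This value rises with depth, and these were the shallowest libraries, with 5848454 and 9181835 counts. The EpiSC pairs, at 469 and 276, each mixed the 2 library types. Both treated libraries were of the type rich in transcripts without a poly(A) tail, so a drug effect and a library effect cannot be told apart here.

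Related lists were read in the same comparison, and edgeR called none of their genes in WT XEN given Aza. The list of transcripts without a poly(A) tail was the exception, with 3 of 3 called higher. Further p53 targets had a positive log2 change in 24 of 28 tested genes, with a median of 0.61 and 10 genes at an unadjusted p under 0.05, a direction shared with the members. The apoptosis genes were positive in 13 of 20 (median 0.34) and the upstream regulators in 7 of 19 (median -0.115). The DREAM-bound genes were negative in 20 of 20 (median -0.41, 1 at an unadjusted p under 0.05) and the ATF4 and CHOP targets in 11 of 15 (median -0.325). XEN cell markers were negative in 10 of 10, with a median of -0.62 and 2 at an unadjusted p under 0.05, and summed to 35300 to 37200 CPM in WT Aza against 40400 to 61200 CPM untreated. Fibroblast markers summed to 67.1 to 73.5 CPM against 21.5 to 52.3 CPM, 7 of 10 of them under 1 CPM in both treated libraries. The part of these markers in the members' levels was not tested.

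**Figure D3:**
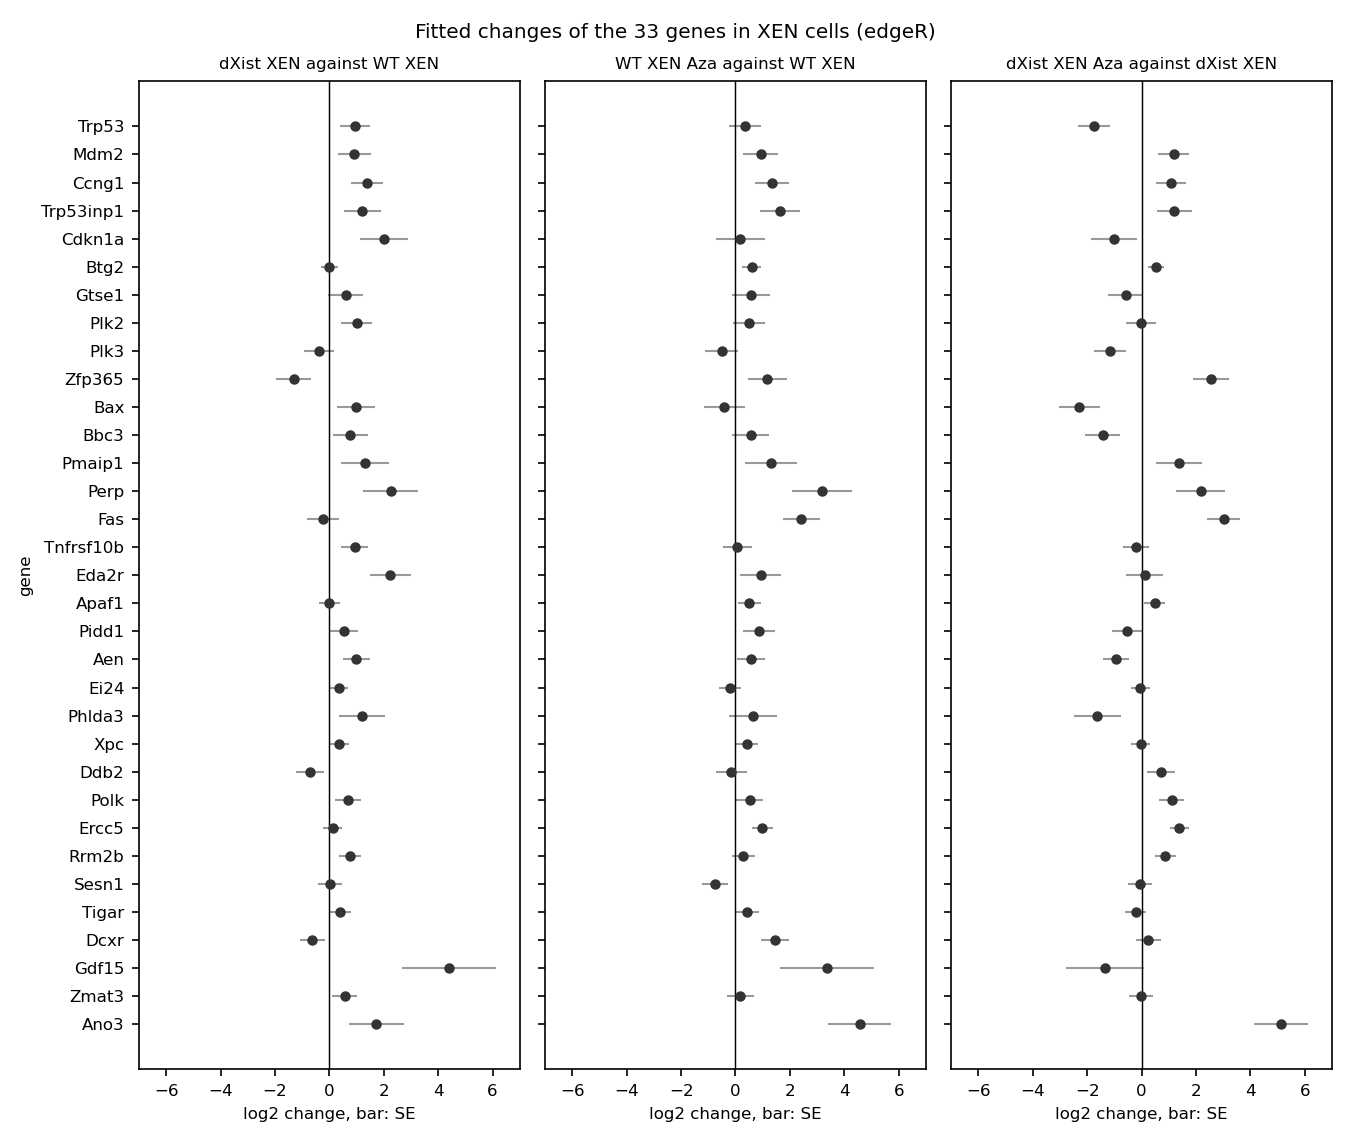
Fitted log2 change with its standard error (edgeR) of the 33 genes in dXist against WT XEN, in Aza-treated against untreated WT XEN and in Aza-treated against untreated dXist XEN; genes are in the order of their roles. Ano3, Fas and Perp lie to the right in both treatment panels, at 4.57, 2.42 and 3.19 in WT and 5.12, 3.02 and 2.17 in dXist, while Cdkn1a lies at 0.17 and -1.03.

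In dXist XEN cells given Aza the set split by gene: 16 of the 33 had a positive log2 change, the median was -0.02, as it was over all tested genes (0.174 and 0.165 with upper-quartile scaling), and edgeR called none. Of all tested genes 0.0707% were called higher and 0.00544% lower, and 9 members had an unadjusted p under 0.05. DESeq2 called 5 members higher and 2 lower (Bax and Trp53), where it called 8.8% and 6.99% of all genes. The 4 members of smallest p were all higher with treatment. Ano3 was at 97.5 and 23.7 CPM in treated lines 1 and 2 against 2.73, 1.76 and 0.170 CPM in untreated lines 1 to 3, a log2 change of 5.12 (SE 0.98, adjusted p = 0.0632). Its untreated levels rest on 85, 47 and 5 counts. Fas was at 32.5 and 16.7 CPM against 4.68, 2.28 and 1.19 CPM, 3.02 (SE 0.60, adjusted p = 0.0641). Ercc5 was at 260 and 128 CPM against 72.7, 67.6 and 58.8 CPM, 1.39 (SE 0.35, adjusted p = 0.0754). Zfp365 was at 49.9 and 13.5 CPM against 3.94, 2.06 and 8.28 CPM, 2.55 (SE 0.65, adjusted p = 0.0754). In all 4 genes both treated lines lay above the 3 untreated ones, line 1 further than line 2. Transcript GC was 40.2% for Ano3, 43.9% for Fas, 47.1% for Ercc5 and 47.6% for Zfp365. Genes poor in GC stood higher in treated line 1, as given below, and the part of this in the 4 genes was not tested. Over the alternatives the adjusted p ran from 3.53e-13 to 0.211 for Ano3, 4.43e-05 to 0.205 for Fas, 0.00533 to 0.266 for Ercc5 and 0.000415 to 0.353 for Zfp365.

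Each treated line was also set against its own untreated line. Over 2-fold higher were 12 members in line 1, against 31.9% of all tested genes, and 6 in line 2, against 25.3%. Over 2-fold lower were 9 in line 1, against 29.8%, and 4 in line 2, against 15.3%. Cdkn1a was at 141 CPM in treated line 1 and 372 CPM in treated line 2, against 657 and 717 CPM untreated. Mdm2 was at 1148 and 438 CPM against 439 and 399 CPM. Pmaip1 was at 257 and 163 CPM against 110 and 104 CPM. Cdkn1a was thus lower in both treated lines than in the untreated line of the same number, while Mdm2 was 2.61 times as high in line 1 and 1.1 times in line 2. Transcript GC was 54.4% for Cdkn1a and 46.2% for Mdm2, and the part of base composition in this contrast was not tested. Trp53 was at 19.4 and 59.2 CPM against 172 and 133 CPM, and Bax at 7.66 and 63.5 CPM against 199 and 186 CPM. These 2 genes were below every untreated line, 2 of 33 against 18.4% of all tested genes. For Trp53 the margin was narrow, with 59.19 CPM in treated line 2 against 59.39 CPM in untreated line 3. That treated value lay between the WT libraries, at 49.6 and 75.2 CPM. Bax was at 99.4 CPM in untreated line 3. Transcript GC was 53.3% for Trp53 and 63.5% for Bax, and its part in these values was not tested. Eda2r was at 349 and 450 CPM against 392 and 546 CPM. Above every untreated line were 13 members, against 23.9%. Against the 2 untreated WT libraries, 21 members were higher in treated line 1 (43.7% of all genes), 12 of them over 2-fold (23.4%), and 29 in treated line 2 (41.3%), 12 over 2-fold (14.8%). Below both WT libraries were 8 in line 1 (38%), 5 of them over 2-fold (21.8%), and 2 in line 2 (31.2%), 0 over 2-fold (7.63%).

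Of the related lists, edgeR again called no gene in dXist XEN given Aza. The list of transcripts without a poly(A) tail was the exception, with mt-Rnr1 called higher at 3.075 (SE 0.43, adjusted p = 0.0498). The ATF4 and CHOP targets, high in untreated lines 1 and 2, had a negative log2 change in 14 of 15 genes, with a median of -2.36 and 9 at an unadjusted p under 0.05. In treated line 1, 1 of these 15 genes was above both WT libraries and 8 were below, while in treated line 2 there were 8 above and 1 below. Further p53 targets were positive in 18 of 28 (median 0.725, 11 at an unadjusted p under 0.05), the upstream regulators in 14 of 19 (median 0.28), the DREAM-bound genes in 13 of 20 (median 0.24) and the apoptosis genes in 8 of 20 (median -0.23). Fibroblast markers were positive in 4 of 4 tested, with a median of 2.17 and 2 at an unadjusted p under 0.05. They summed to 25.5 to 64.6 CPM in treated against 2.88 to 5.00 CPM in untreated dXist XEN, with 6 of 10 under 1 CPM in both treated libraries. XEN cell markers were negative in 9 of 10 (median -0.61) and summed to 17400 to 42600 CPM against 43100 to 57200 CPM. The part of these markers in the members' levels was not tested.

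Treated line 1 differed in base composition from its untreated line and from treated line 2. The members low in it relative to its untreated line tended to be rich in GC, and those high in it poor in GC. Against its own untreated line the Spearman correlation of log2 ratio with transcript GC was -0.59 over 11373 genes and -0.82 over 32 members, while for line 2 it was -0.17 over 11738 genes and -0.57 over 33 members. The genes share libraries and these are descriptions. The median log2 ratio in line 1 was 0.83 in the third of genes with least GC and -1.26 in the third with most. Phlda3, with a GC content of 62.6%, was at 16.5 CPM in treated line 1 against 297 CPM untreated, and at 126 against 261 CPM in line 2. Bbc3, at 65.2% GC, was at 10.8 against 92.2 CPM in line 1 and at 49.99 against 102 CPM in line 2. Gdf15, at 61.3% GC, was at 0.368 against 13.6 CPM in line 1 and at 4.06 against 2.35 CPM in line 2. Phlda3 and Bbc3 were thus lower in both lines and more so in line 1, and Gdf15 went opposite ways. The part of base composition in these values was not tested. With treated line 2 left out, so that the treated group was line 1 alone and was assumed to vary like the other groups, 4 members were called higher and 5 lower (Bax, Bbc3, Phlda3, Plk3 and Trp53), where 10.1% and 13.7% of all tested genes were; with treated line 1 left out, 0 were called. With untreated line 3 left out, Ano3 at 4.60 (adjusted p = 0.0443), Fas at 2.68 (adjusted p = 0.0499) and Zfp365 at 3.25 (adjusted p = 0.0483) were called higher, 3 of 33 against 1.57% of all tested genes.

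**Figure D4:**
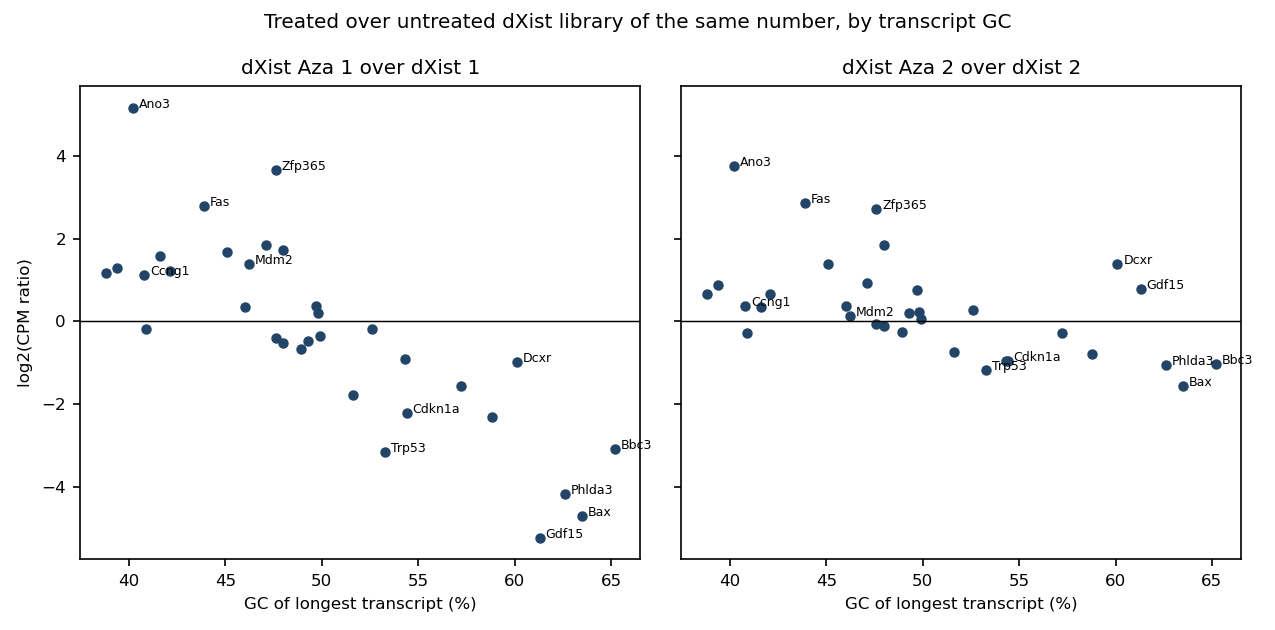
Log2 ratio of CPM in a treated dXist XEN library over the untreated library of the same number (vertical axis) against the GC content of the longest transcript in percent (horizontal axis), 1 point for each of the 33 genes; left line 1, right line 2. Points fall with GC in both panels, more steeply in line 1, where Gdf15, Bax and Phlda3 lie lowest, and Ano3, Fas and Zfp365 lie above 0 in both.

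Whether the response to Aza differed between dXist and WT XEN was tested as an interaction, and no member was called (0.00544% of all tested genes were higher and 0.239% lower; 1 member had an unadjusted p under 0.05, and DESeq2 called 0). The smallest p was that of Trp53, with a difference of log2 changes of -2.09 (SE 0.82, adjusted p = 0.603). Bbc3 followed at -1.99 (SE 0.94, adjusted p = 0.620), Gdf15 at -4.71 (SE 2.25, adjusted p = 0.621) and Aen at -1.51 (SE 0.72, adjusted p = 0.621). With treated line 2 left out, Bax, Bbc3, Dcxr, Phlda3 and Trp53 were called lower, 5 of 33 against 5.16% of all tested genes. Library type enters this contrast with the WT Aza libraries and cannot be told apart from it. In the fit without treated line 2, the treated dXist group was line 1 alone, in which genes rich in GC stood low, as given above. The 5 genes called lower there had a transcript GC of 63.5% (Bax), 65.2% (Bbc3), 60.1% (Dcxr), 62.6% (Phlda3) and 53.3% (Trp53). All lay in the third of genes with most GC, above 52.4%. The part of base composition in these 5 calls was not tested.

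In EpiSC with the Xist deletion 16 of the 33 genes had a positive log2 change, the median was -0.03 and no member was called by edgeR, nor was any of all 17132 tested genes (0%). At an unadjusted p under 0.05 there were 2 members, and DESeq2 called 0. Plk2 was at 154 and 150 CPM in WT and at 86.8 and 77.2 CPM in dXist libraries 1 and 2, a log2 change of -0.87 (SE 0.26, adjusted p = 0.373). Sesn1 was at 22.8 and 21.6 CPM in WT and at 40.4 and 34.5 CPM in dXist, 0.78 (SE 0.24, adjusted p = 0.396). Mdm2 was at 474 and 286 CPM in WT and at 238 and 196 CPM in dXist, -0.78 (SE 0.37, adjusted p = 0.561). Gtse1 was at 97.7 and 106 CPM in WT and at 152 and 136 CPM in dXist, 0.52 (SE 0.26, adjusted p = 0.581). The groups did not overlap in these 4 genes, nor in 17 members in all, 7 above and 10 below, against 20.5% and 22.3% of all tested genes. Cdkn1a was at 212 and 129 CPM in WT and at 152 and 102 CPM in dXist, and Trp53 at 192 and 185 CPM against 258 and 215 CPM.

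Within libraries of like type, 12 members were higher in dXist EpiSC in both pairs, 14 lower in both and 7 of opposite sign, where 32.5%, 34.5% and 32.6% of all tested genes fell in these classes. Plk2 had log2 ratios of -0.83 and -0.96 and Mdm2 of -0.99 and -0.54 in the pair poor in and the pair rich in transcripts without a poly(A) tail. Bax had 1.02 and -0.32 and Bbc3 1.34 and -0.11, so that their direction differed between the pairs. The WT libraries of the pairs also differed by GC, with a Spearman correlation of -0.56 over 12388 genes. With the pair as a block, Plk2 was called lower at -0.87 (adjusted p = 0.0418) and Dcxr higher at 0.91 (adjusted p = 0.0305), 1 of 33 each against 6.53% and 4.91% of all tested genes. Fibroblast markers summed to 713 to 825 CPM in WT and 209 to 273 CPM in dXist EpiSC, with 1 and 2 of 10 under 1 CPM in all libraries of the group, and their part in these values was not tested. The ATF4 and CHOP targets had a positive log2 change in 13 of 15 genes in dXist EpiSC (median 0.80, 8 at an unadjusted p under 0.05), and edgeR called none.

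Between WT EpiSC and WT XEN cells, 24 of the 33 genes had a positive log2 change and 9 a negative one. By edgeR 7 of the 33 were higher and 1 lower in EpiSC, where 16.8% of all tested genes were called higher and 14.1% lower, and the median log2 change was 0.77 against 0.13. Of the 7 called higher, the 2 with the largest changes were under 2 CPM in WT XEN. Ano3 was higher in EpiSC, at 166 and 80.9 CPM against 0.703 and 0.223 CPM, a log2 change of 8.04 (SE 1.19, adjusted p = 0.00173). Perp was at 120 and 97.2 CPM against 1.27 and 1.53 CPM, 6.27 (SE 1.22, adjusted p = 0.00629). Perp thus was the fourth in rank per length in WT EpiSC, at 55.6 CPM per kb, and one of the lowest in WT XEN, at 0.718 CPM per kb. Zfp365 was at 124 and 72.8 CPM against 11.2 and 12.5 CPM, 3.05 (SE 0.58, adjusted p = 0.00491).

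Trp53 was higher in EpiSC, at 192 and 185 CPM against 49.6 and 75.2 CPM, 1.59 (SE 0.47, adjusted p = 0.0295). The repair genes Xpc, at 38.7 and 29.9 CPM against 12.8 and 13.3 CPM, 1.40 (SE 0.31, adjusted p = 0.00970), and Rrm2b, at 28.7 and 14.7 CPM against 6.90 and 6.25 CPM, 1.72 (SE 0.42, adjusted p = 0.0143), were also higher. So was Tigar, at 25.6 and 21.1 CPM against 9.01 and 11.2 CPM, 1.21 (SE 0.37, adjusted p = 0.0331). Each of the 7 genes called higher had both EpiSC libraries above both XEN libraries. Ano3 and Zfp365 were called in all 9 alternative fits, while Trp53 and Tigar were called in none of the 4 that left out a library, with adjusted p up to 0.153 and 0.145. Rrm2b kept its call only without WT EpiSC library 2 among those 4 (adjusted p up to 0.101), Perp lost it without WT XEN library 1 (0.0533), and Xpc lost it without WT XEN library 1 or WT EpiSC library 1 (up to 0.0531). Pmaip1 lost its call without either EpiSC library (up to 0.0729). Trp53 was also not called with library type as a term, nor Tigar with no low-count filter. Both WT XEN libraries were poor in transcripts without a poly(A) tail, while WT EpiSC library 2 was rich in them. The member called lower was Pmaip1, at 0.451 and 0.0968 CPM (16 and 2 counts) against 30.5 and 28.4 CPM, -6.62 (SE 1.47, adjusted p = 0.0110). The 2 counts of WT EpiSC library 2 lie under a floor of 3 counts (0.166 CPM), and dXist EpiSC held 14 and 1 counts. Cdkn1a, at 212 and 129 CPM against 169 and 67.8 CPM, overlapped between the cell types.

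**Figure D5:**
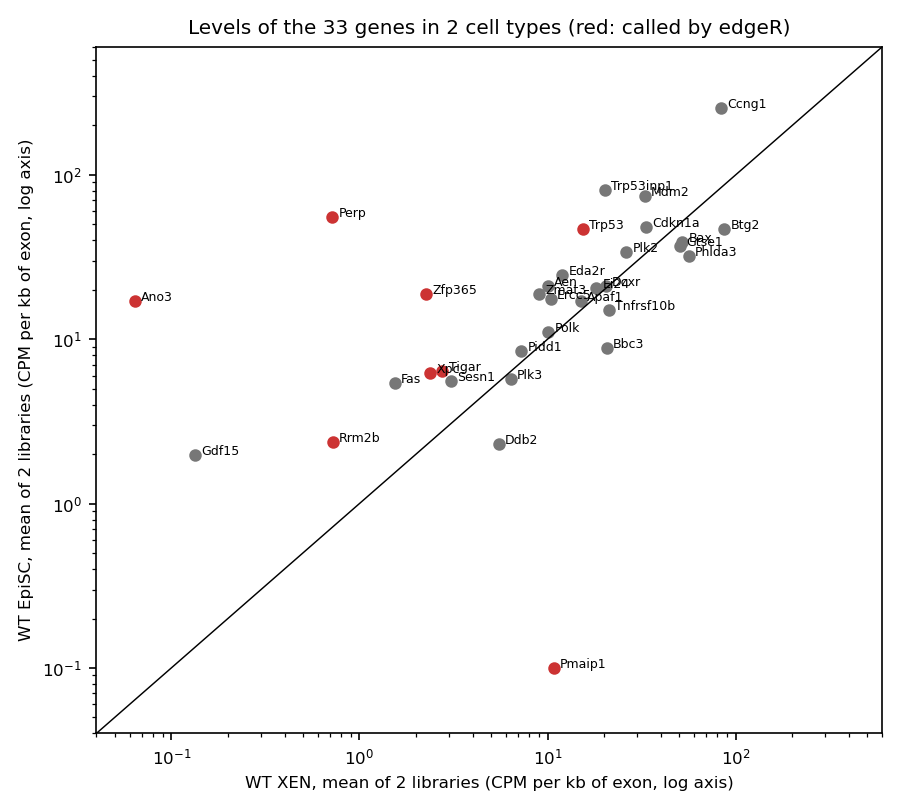
Mean level of the 33 genes in WT EpiSC (vertical) against WT XEN (horizontal), both in CPM per kb of exon on log axes over 2 libraries each; red marks the 8 genes called by edgeR and the line marks equal levels. Ano3, Perp and Zfp365 lie far above the line and Pmaip1 far below it, while Ccng1, the highest member in EpiSC at 256, lies above and Btg2, the highest in XEN at 86.8, below.

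Of the highest members per length in WT EpiSC, Ccng1 stood at 256, Trp53inp1 at 80.5 and Mdm2 at 74.8 CPM per kb, all feedback genes. Their CPM in the 2 libraries were 1162 and 635 for Ccng1, 623 and 420 for Trp53inp1 and 474 and 286 for Mdm2, and none of the 3 was called against XEN. Above XEN without overlap were 17 members, against 36.3% of all tested genes, and below 6, against 30%. Among related lists, 12 further p53 targets were called higher and 2 lower of 29 tested, to be read against the 16.8% and 14.1% of all tested genes. Of these, Pltp, a lipid transfer protein gene, was at 8.89 and 13.5 CPM in EpiSC and 131 and 207 CPM in XEN (adjusted p = 0.000195), and Dram1, a lysosomal autophagy gene, at 5.39 and 2.81 CPM and 86.0 and 60.8 CPM (adjusted p = 0.000461). Trp53i11 was at 55.3 and 111 CPM in EpiSC and 0.134 and 0.159 CPM in XEN (adjusted p = 0.000264), and Steap3, an iron reductase gene, at 10.5 and 12.4 CPM and 0.0670 and 0.0638 CPM (adjusted p = 0.000317). Of the upstream regulators 6 were higher and 3 lower of 19, the latter near the share of all genes. Trp73, the p53 relative, was at 5.67 and 6.29 CPM in EpiSC and 0.0670 and 0.0319 CPM in XEN (adjusted p = 0.00190). Cdkn2a, whose Arf product restrains Mdm2, was at 10.2 and 8.81 CPM in EpiSC and 22.8 and 42.2 CPM in XEN (adjusted p = 0.0153). Pml, a nuclear body scaffold, was at 85.5 and 94.3 CPM in EpiSC and 33.2 and 36.6 CPM in XEN (adjusted p = 0.00541), and the damage adaptor Trp53bp1 at 197 and 164 CPM and 77.8 and 70.7 CPM (adjusted p = 0.00875). Of 20 apoptosis executors and inhibitors 8 were higher and 3 lower, the latter again near the share of all genes. No DREAM-bound gene was called by edgeR, with 7 at an unadjusted p under 0.05, and 6 of 15 ATF4 and CHOP targets were lower. Fibroblast markers were called higher in EpiSC for 8 of 10 (median 8.29) and summed to 713 to 825 CPM there against 21.5 to 52.3 CPM in XEN, and their part in the members' levels was not tested.

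The difference of the Xist deletion's effect between the cell types was tested as an interaction, and no member was called (0.00507% of all tested genes each way; 3 members had an unadjusted p under 0.05, and DESeq2 called 0). Ccng1 differed by -2.10 (SE 0.86, adjusted p = 0.449), the log2 change in EpiSC being below that in XEN. Plk2 differed by -1.87 (SE 0.79, adjusted p = 0.462), Zfp365 by 1.71 (SE 0.73, adjusted p = 0.471) and Gdf15 by -4.44 (SE 2.12, adjusted p = 0.500). With dXist XEN line 3 left out, Aen, Ccng1, Cdkn1a, Eda2r and Perp were called lower and Zfp365 higher, 5 and 1 of 33 against 1.46% and 1.98% of all tested genes. Cdkn1a then differed by -2.93 (adjusted p = 0.0457). That fit again keeps the 2 high XEN lines only.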

How the data were processed

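Bulk RNA was measured in 13 libraries of 6 groups. The deposited table holds whole-number read counts per gene, not normalised. Reads were aligned to GRCm38 (mm10), and the tools listed are STAR 2.7.9a, featureCounts 2.0.1 and FastQC, per the submitters' processing notes. Strand setting and annotation release used for counting were not stated. Both NEBNext Ultra and Tru-seq stranded kits appear in the labels' protocols, and none is tied to a library. Exons of 8 members overlap another annotated gene, 1 of them on the same strand, so reads of these can be shared. GENCODE vM21 on GRCm38 matched 38240 of the 38377 identifiers (99.64%).

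Counts were tested in R 4.3.3 with edgeR 4.0.16 (TMM, filterByExpr, robust quasi-likelihood F test), with Benjamini-Hochberg adjustment over all tested genes and calls at 0.05. For 7 comparisons, fits were made on the 9 XEN libraries (residual df 5), on the 4 EpiSC libraries (df 2) and on the 9 untreated libraries (df 5). The standard error is the absolute log2 change over the square root of F. CPM used 1 TMM scaling of all 13 libraries. A count of 3 was 0.0851 to 0.513 CPM, and this covers counting error only. The script was tested on simulated data. Alternatives were DESeq2 1.42.0, upper-quartile scaling, no low-count filter, a replicate block, library type as a term over all 13 libraries, and leaving out each library.

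All 33 members are named. Changes are given for called members, or for the 4 of smallest p where fewer were called, and values of other lists for at most 4 called members, with Ddit3 added after its values were seen. Genes named beyond this in fits without a library were chosen after their values were seen. The members and lists were chosen with earlier results of these data known.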

Additional observations from a re-analysis of the deposited data

How the results depend on the processing

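Counts of called members depended on the fit. In dXist against WT XEN the count moved from 0 to 2 with DESeq2, 4 with no low-count filter and 3 with the replicate block, and from 0 to 3 over the fits without 1 library. In WT XEN Aza it moved from 0 to 3 with DESeq2, 2 with no filter and 2 with the replicate block. In dXist XEN Aza it moved from 0 to 7 with DESeq2, 2 with upper-quartile scaling, 10 with no filter, 1 with the replicate block and 4 with library type as a term, and from 0 to 9 over the fits without 1 library. The interaction of Aza and genotype moved from 0 to 1 with no filter and from 0 to 5 over the fits without 1 library. In dXist against WT EpiSC it moved from 0 to 2 with the replicate block, which is also the library type. In WT EpiSC against WT XEN it moved from 8 to 14 with DESeq2, 13 with no filter and 19 with the replicate block, and to between 3 and 6 over the fits without 1 library: 3 without WT XEN library 1, 5 without WT XEN library 2 and 3 without WT EpiSC library 1. The interaction of deletion and cell type moved from 0 to 5 with no filter and 9 with the replicate block, and from 0 to 6 over the fits without 1 library. Of all tested genes DESeq2 called 2.75%, 3.51% and 15.8% in the first 3 comparisons and 37.9% between cell types, no filter 1.92%, 2.09%, 7.71% and 21.6%, and the replicate block 2%, 0.593%, 0.712% and 40%. In dXist XEN Aza upper-quartile scaling called 0.756% of all genes and library type as a term 6.68%. No filter called 0.944% in the interaction of Aza and genotype and 1.76% in that of deletion and cell type, and the replicate block called 3.77% in the latter and 11.4% in EpiSC. At the highest count of members without 1 library, 2.87% of all genes were called in dXist against WT XEN, 23.9% in dXist XEN Aza, 8.1% in the interaction of Aza and genotype and 3.44% in that of deletion and cell type. Between cell types the fits without 1 library called 3045 to 4864 of 21038 to 21340 tested genes. The cause of these shifts was not tested. Upper-quartile scaling moved the median log2 change of all genes from -0.04 to 0.10 and of the members from 0.57 to 0.71 in WT Aza, and from 0.13 to 0.32 and from 0.77 to 0.95 between cell types. The labels do not say that a replicate number marks a shared culture, and deviations of same-numbered libraries correlated at -0.13 and 0.06 in dXist against WT XEN, -0.0041 in WT Aza, -0.05 and 0.10 in dXist Aza, 0.77 in EpiSC and 0.08 between cell types. Of 336 values of 32 single-gene results under these alternatives, 271 kept their side of the threshold, 47 passed it, 18 no longer did and 0 changed direction. With 2 or 3 libraries a group and 2 to 5 residual degrees of freedom, a p that misses the threshold does not show that levels were alike.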
